A study of Mus musculus with 27 samples.

Results

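The kinesin motor genes described here are the 37 genes, of 53379 in the deposited expression table, whose symbol is Kif followed by a number and at most a letter and a digit. Kif5a, which the pattern also matches, was left out by the rule, so the set holds all such genes but 1. All 37 are annotated as protein-coding in GENCODE M21. The members were sorted by textbook function into 11 spindle and cytokinesis motors, 14 cargo transport motors, 6 motors of cilia and Hedgehog signalling and 6 others. The minus-end-directed Kifc genes, Cenpe and the kinesin light chains carry other names and were taken as a comparison list.

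The study used E14 mouse embryonic stem cells, an established line grown here on gelatin in LIF-containing medium. Cells received siRNA against eGFP (siGFP, the negative control), against PTBP1 alone (siPTBP1) or against PTBP1 and PTBP2 together (double knockdown), with a repeat transfection after 24 h and harvest at 48 h. Cells were separated into cytoplasm (CY), nucleoplasm (NP) and chromatin (CH), and polyA+ RNA of each fraction was sequenced with a stranded kit. Every treatment and fraction has 3 biological replicates, giving 27 libraries in 9 groups. All groups are the same line, and the control cells were transfected too. PTBP1 and its paralog PTBP2 are RNA-binding proteins that bind pyrimidine-rich stretches and repress splicing events, and the series was designed to study introns that PTBP1 regulates.

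Kinesins are motors that hydrolyse ATP to walk along microtubules, or, in some families, to take microtubule ends apart. One branch builds and moves the mitotic spindle, carries chromosomes and organises the midzone where the cell divides, and its genes are transcribed mostly late in the cell cycle. Other branches carry vesicles, organelles and ciliary proteins, with many family members best known from neurons, whereas embryonic stem cells divide fast and have little axonal transport.

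The promoters of the spindle motors were searched for 2 elements typical of late cell cycle genes, CCAAT (the box bound by NF-Y) and TTTGAA (the cell cycle homology region, CHR), each on both strands. RefSeq windows on GRCm38.p6, from 250 bases before to 50 after each start, matched 31 of the 37 members. TTTGAA was found in 9 of 10 matched spindle motors, in 1 of 11 transport motors (9.09%) and in 20.2% of all 27025 genes with a window. For Kif4, Kif18b, Kif20b and Kif23 the match reached into the 50 bases after the start. CCAAT was found in 6 of the 10 spindle motors against 41.1% of all genes, and both elements in the same number, 6 of 10, against 7.97%. The first 250 bases of 3 windows are shown, with every match there in capitals and the 2 elements nowhere overlapping. They are those of Kif22 and Kif2c, which fell in the knockdowns, and of Kif15, whose RNA level differed most between chromatin and cytoplasm. The 250 bases before the RefSeq start lie at chr7:127042421-127042670 (minus strand) for Kif22, chr4:117178773-117179022 (minus strand) for Kif2c and chr9:122950831-122951080 (plus strand) for Kif15, and read 5′ to 3′ along the gene:
Kif22: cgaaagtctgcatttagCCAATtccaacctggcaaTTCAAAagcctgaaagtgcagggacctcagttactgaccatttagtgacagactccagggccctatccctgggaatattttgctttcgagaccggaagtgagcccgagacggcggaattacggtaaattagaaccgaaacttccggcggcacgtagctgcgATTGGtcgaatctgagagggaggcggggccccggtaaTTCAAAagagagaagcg
Kif2c: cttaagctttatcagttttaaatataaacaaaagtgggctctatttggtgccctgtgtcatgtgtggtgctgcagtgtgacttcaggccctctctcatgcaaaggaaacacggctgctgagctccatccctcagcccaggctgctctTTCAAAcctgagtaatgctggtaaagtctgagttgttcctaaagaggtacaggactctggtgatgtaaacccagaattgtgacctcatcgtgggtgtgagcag
Kif15: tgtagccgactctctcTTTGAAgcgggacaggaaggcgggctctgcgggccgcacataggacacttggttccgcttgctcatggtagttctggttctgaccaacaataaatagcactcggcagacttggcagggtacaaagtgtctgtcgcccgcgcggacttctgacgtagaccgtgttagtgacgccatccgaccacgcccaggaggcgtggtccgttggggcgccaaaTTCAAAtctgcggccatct
The printed bases of Kif22 hold 2 CCAAT and 2 TTTGAA matches, those of Kif15 hold 2 TTTGAA matches and those of Kif2c 1. The RefSeq start of Kif2c lies 3867 bases inside the longest GENCODE gene model, so its window is not the promoter of the longest annotated transcript. The RefSeq start of Kif14, a spindle motor counted for both elements, lies 1505 bases inside its gene model. A match describes the letters of a window and not a bound site.

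Intron ends were read next, because the knocked-down proteins bind pyrimidine-rich RNA with UCUU among their preferred words. GENCODE M21 annotates transcripts that retain an intron for 20 of the 31 members that were tested (64.5%, against 55.6% of 14240 tested protein-coding genes). There are 8 such transcripts for Kif15, 7 each for Kif23 and Kif1b, 5 for Kif18a, 4 for Kif5b, and 3 each for Kif2c, Kif22, Kif20b and Kif13b. The last 50 bases of 1 annotated retained intron of each of 4 motors are printed 5′ to 3′ with TCTT in capitals. They end the introns chr4:117177970-117178144 of Kif2c (minus strand), chr7:127034033-127034123 of Kif22 (minus strand), chr9:122991228-122991860 of Kif15 (plus strand) and chr9:61945420-61946611 of Kif23 (minus strand):
Kif2c intron: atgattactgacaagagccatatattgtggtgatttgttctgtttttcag
Kif22 intron: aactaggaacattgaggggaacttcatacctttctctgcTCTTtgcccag
Kif15 intron: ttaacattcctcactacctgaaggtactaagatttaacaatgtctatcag
Kif23 intron: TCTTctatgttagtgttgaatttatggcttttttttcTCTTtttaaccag
Kif2c and Kif15 have 1 such intron each. Of the 5 of Kif22 and the 2 of Kif23, the printed ones are those with TCTT, and the others have none. TCTT was present at 10 of 20 such intron ends of kinesin genes (from 10 genes) and at 44.6% of 6554 ends over 3425 tested genes. The other pyrimidine word counted, CTCTCT, was present at 0 of these 20 ends and at 7.71% of the 6554. With so few kinesin ends, neither count was tested against the share over all tested genes. The values below are gene totals, which do not say whether an intron was kept.

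The targeted genes and the fractions were checked first. Ptbp1 in CY fell from 549 ± 56.2 TPM (the deposited unit, transcripts scaled to a library's total, with the SD and n = 3 as in all groups) in siGFP to 123 ± 18.1 in siPTBP1 (log2 difference -2.15, adjusted p = 0.000853, limma) and, with PTBP2 also targeted, to 142 ± 50.1 (-1.99, adjusted p = 0.00249). In CH 47.2% and 55.8% of the Ptbp1 level was left. There, siPTBP1 (adjusted p = 0.00541, against 0.16) and the double knockdown (0.0303, against 0.367) passed only with the replicate number as a block. Ptbp2 in the double knockdown was at 48.0% of siGFP in CY (adjusted p = 0.00113 with the block, 1.0 without), at 57.6% in NP (0.00714 and 1.0) and at 81.4% in CH, where it was not called (0.587 and 1.0). The nuclear RNAs Malat1 and Neat1 summed to 10.8 to 23.5 TPM in CY and 559 to 1195 TPM in CH of siGFP, while 3 mitochondrially encoded RNAs summed to 213 to 435 TPM in CY and 38108 to 61009 TPM in NP. All 10 pluripotency markers averaged at least 1 TPM in siGFP in each fraction. Their sum was lower in the knockdowns without overlap in CY (4596 to 4894 TPM in siGFP, 3738 to 4337 in siPTBP1 and 3840 to 4571 in the double knockdown) and in NP (4404 to 4837, 3316 to 4368 and 3228 to 4054 TPM). The 6 visceral endoderm markers summed to 1.69 to 2.59 TPM in CY of siGFP and to 3.58 to 5.22 TPM in the knockdowns, with Ttr at 0. The 8 neuron markers summed to 253 to 319 TPM in CY of siGFP, 271 to 328 TPM in siPTBP1 and 320.1 to 332 TPM in the double knockdown. Their sums overlapped in NP (194 to 273, 179.6 to 239 and 178 to 247 TPM) and in CH (139.8 to 202, 134 to 185 and 135 to 181 TPM). Replicate 1 stood apart: it was the lowest of the 3 libraries for 28 of 31 tested kinesin genes in CY of siGFP (51.0% of all genes). In CY of siPTBP1 and the double knockdown it was lowest for 24 and 23 of them (44.8% and 50.9% of all genes). In the other groups it was lowest for 16 to 20 (39.5% to 52.5% of all genes), with the 16 in CH of siPTBP1 beside 50.2%. Libraries with the same replicate number deviated together in all 108 such pairs, so each result is given with the block beside it where the block changes the call. The deposited values are TPM with no read counts, so the depth behind each value is unknown, and the tests see only how far these libraries vary, since the labels do not say what separates the replicates.

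Of the 37 members, 28 averaged at least 1 TPM in every CY and NP group, and 30 to 32 in the CH groups. In CY of siGFP the set summed to 563 TPM, of which the spindle motors held 67.8%. Kif22, a chromokinesin that pushes chromosome arms away from the spindle poles, was highest there with 90.5, 115 and 105 TPM in replicates 1 to 3. Kif20a, which brings the Aurora B complex to the central spindle, followed with 48.0, 91.1 and 103 TPM, and Kif2c, a microtubule depolymerase of centromeres, with 40.2, 63.2 and 64.7 TPM. The ranges of Kif22 and Kif20a overlap, as do those of Kif20a and Kif2c, while every Kif22 library was above every Kif2c library. Next came Kif18b, which shortens astral microtubules, at 46.0 ± 2.3 TPM, and Kif23, a subunit of centralspindlin at the midzone, at 35.6 ± 16.2 TPM. Kif11, the motor that separates spindle poles, stood at 20.7 ± 10.4 TPM.

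Transport motors covered a lower range, which overlapped that of the less abundant spindle motors. Kif1c, a motor for vesicles and integrins, was highest among them in CY of siGFP at 28.3 ± 4.28 TPM, followed by the endosome motor Kif13a at 21.9 ± 5.17 TPM and by Kif5b, the ubiquitous conventional kinesin heavy chain, at 16.2 ± 6.62 TPM. Its paralog Kif5c was at 8.01 ± 2.99 TPM. The kinesin-2 subunits Kif3a, Kif3b and Kif3c stood at 6.67 ± 2.8, 5.1 ± 1.95 and 5.32 ± 1.11 TPM. Kif1a, a carrier of synaptic vesicle precursors, was measured at 9.61 ± 5.15 TPM. Of the cilium genes, Kif24, which acts at the mother centriole, and Kif7, a Hedgehog regulator of the cilium tip, reached 6.69 ± 1.74 and 5.49 ± 0.458 TPM. Kif2a, a depolymerase related to Kif2c, was at 20.8 ± 8.15 TPM in the group of other motors.

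**Figure D1:**
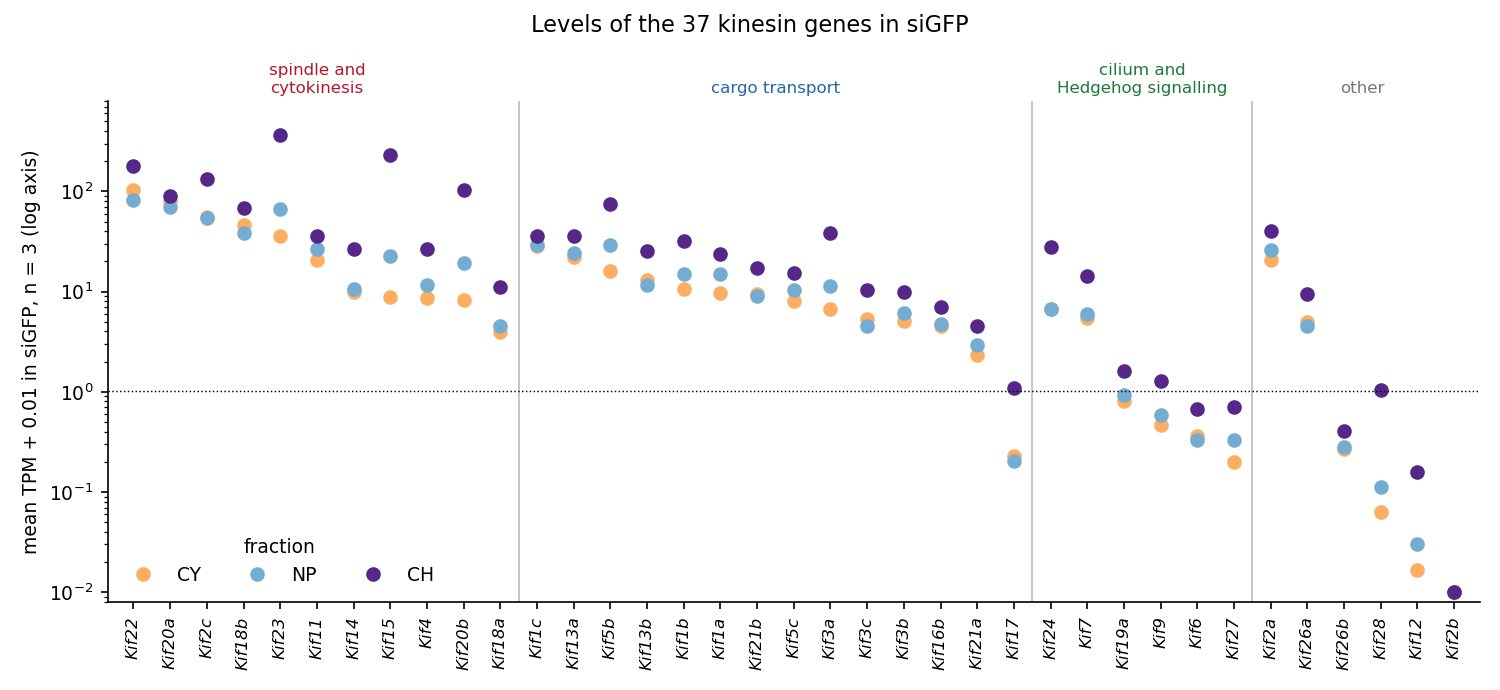
Mean TPM (plus a small constant) of all 37 kinesin genes in the 3 siGFP fractions (n = 3 libraries each, log axis), ordered by role and by level in CY, with the dotted line at 1 TPM. Kif22, Kif20a, Kif2c, Kif18b and Kif23 are the highest in CY, and among genes above 1 TPM in CY the gap between CH and CY is widest for Kif15, Kif20b and Kif23.

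Of the 37, 6 members did not pass the filter of at least 1 TPM in at least 3 of 27 libraries: Kif2b, Kif6, Kif12, Kif26b, Kif27 and Kif28. The highest group mean among them was 1.04 TPM, for Kif28 in CH of siGFP. Kif2b was listed at 0 in 26 libraries and at 0.05 TPM in 1 siPTBP1 library of NP. Of the 31 members that passed, Kif9 and Kif17 did so only through their CH libraries, where they were highest, so a difference between CH and the other fractions was built into their choice.

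In the knockdowns, 2 spindle motors were called lower and no kinesin gene was called higher in CY or NP. Some uncalled members were also apart from siGFP without overlap. Kif1c and Kif18b were higher in CY of both knockdowns, Kif3c and Kif7 in CY of the double knockdown and Kif1b in NP of the double knockdown. Kif13a was apart in NP of both knockdowns, and Kif1b and Kif26a in CH of siPTBP1. None of these was called with or without the block. How many of all genes lay apart in this way, here or below, was not counted. The lack of overlap thus does not set these members apart from other genes. Kif2c fell in CY of the double knockdown to 39.5% of its siGFP level, and Kif22 in NP to 53.7%. With the replicate block, Kif2c was lower in CY and NP of both knockdowns (39.5% to 49.3%), and so was Kif22 (53.7% to 62.3%) except in CY of siPTBP1, where it stood at 69.8%. Neither was called in CH. The 4 tested cilium genes and the 2 tested members of the other group were not called in any of the 6 comparisons with siGFP.

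Kif2c (chr4:117159639-117182639, minus strand, GRCm38) read 40.2, 63.2 and 64.7 TPM in CY of siGFP, 21.3, 26.2 and 33.4 TPM in siPTBP1, and 11.6, 23.9 and 30.8 TPM in the double knockdown. All 6 knockdown libraries were below all 3 controls. The mean of 56.0 ± 13.7 TPM in siGFP compares with 22.1 ± 9.75 TPM in the double knockdown, and siPTBP1 stood at 48.1% of siGFP. On the log2(TPM + 1) scale, on which all differences are given, the double knockdown was lower (difference -1.37, SE 0.29, adjusted p = 0.0466, limma over all 20611 tested genes). The difference for siPTBP1 was -1.02 (adjusted p = 0.306), which passed with the replicate block (adjusted p = 0.000549), as did the double knockdown (2e-05). One of 31 members was thus called lower in CY of the double knockdown, against 0.0922% of all genes. In siPTBP1 none was called, against 0.228% of all genes in either direction, and 2 members had an unadjusted p under 0.05. With the block, Kif2c was the only member called lower in siPTBP1 (0.495% of all genes), and Kif2c and Kif22 were in the double knockdown (0.951%).

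The call for Kif2c in CY of the double knockdown depended on single libraries. It was lost without replicate 2 or 3 of siGFP (adjusted p = 0.22 and 0.282) and without replicate 1 or 2 of the double knockdown (0.225 and 0.0919), with the difference between -1.48 and -0.99. It was also lost with no filter on low values (0.088) and when only the CY libraries were fitted (0.37). Without all replicate 1 libraries the difference was -1.21 (adjusted p = 0.00348).

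In NP, Kif2c read 49.9, 54.0 and 58.4 TPM in siGFP, 23.2, 26.9 and 29.9 TPM in siPTBP1, and 19.8, 24.4 and 29.9 TPM in the double knockdown. The knockdown libraries were again all below the controls. The differences were -1.0 and -1.12, with adjusted p = 0.336 and 0.192, and 0.001 and 0.000335 with the replicate block. In CH the order was not the same: siGFP read 101, 143 and 152 TPM, siPTBP1 116, 172 and 169.8 TPM, and the double knockdown 118, 172 and 178 TPM. These groups overlap, and the differences of 0.21 and 0.24 were not called (adjusted p = 0.599 and 0.543 with the block).

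**Figure D2:**
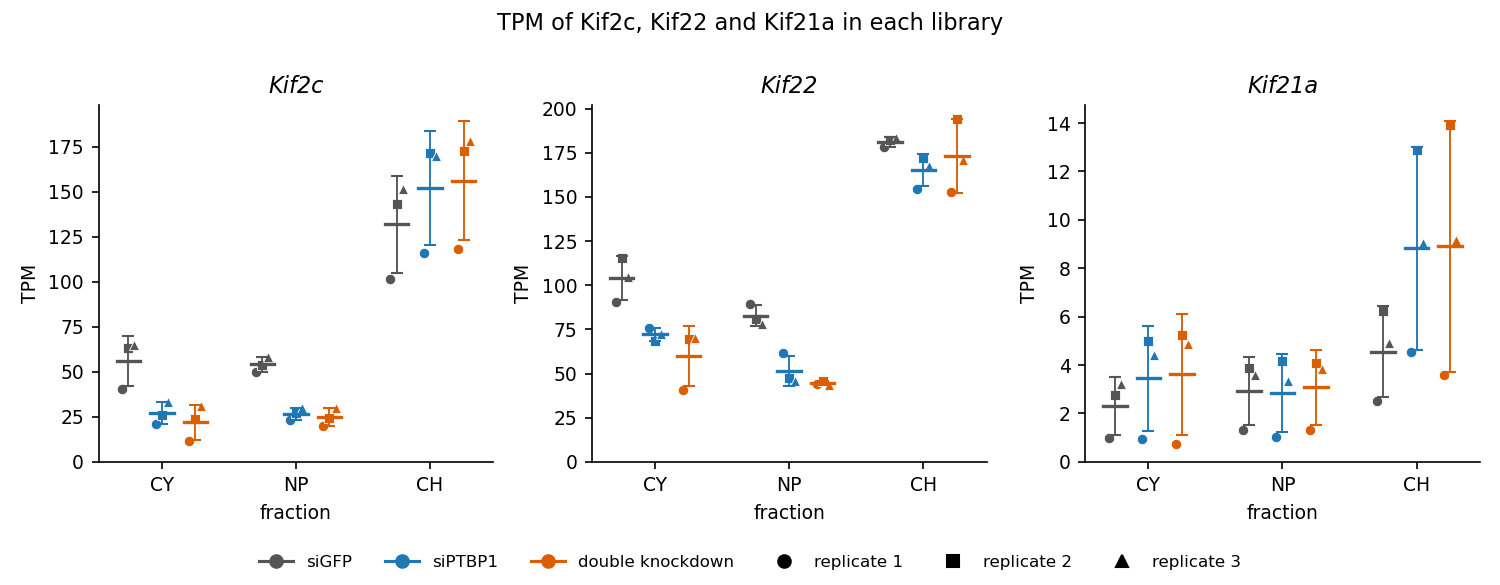
TPM of Kif2c, Kif22 and Kif21a in each of the 27 libraries, by fraction and treatment, with the mean as a bar and the SD as whiskers (n = 3). Kif2c and Kif22 are lower in CY and NP of both knockdowns than in siGFP, whereas their CH groups, other than Kif22 in siPTBP1, overlap with siGFP. Kif21a is higher in CH of the knockdowns within each replicate number.

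Whether the Kif2c effect differed between fractions was tested directly. The siPTBP1 effect in CH minus that in CY was 1.23 (SE 0.41, adjusted p = 1.0, 0.0134 with the block), and for the double knockdown it was 1.61 (SE 0.41, adjusted p = 0.382, 0.000532 with the block). Kif2c was the single member called there with the block, against 0.194% and 0.383% of all genes. Without the block no member was called (0.0437% and 0.0582% of all genes), and 1 and 2 members had an unadjusted p under 0.05. The effect in NP minus that in CY was 0.02 and 0.26, and no member was called for that difference with or without the block (0.00485% of all genes in each without it), nor had any an unadjusted p under 0.05. The ratio of CH to CY within a replicate number was 2.52, 2.27 and 2.34 in siGFP, 5.45, 6.54 and 5.09 in siPTBP1, and 10.2, 7.21 and 5.77 in the double knockdown. Every knockdown ratio exceeded every control ratio.

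Kif22 (chr7:127027729-127042471, minus strand) read 89.1, 81.1 and 78.1 TPM in NP of siGFP, 61.5, 47.3 and 46.0 TPM in siPTBP1, and 44.1, 45.6 and 43.6 TPM in the double knockdown. All knockdown libraries lay below the controls. The double knockdown was called lower (difference -0.88, SE 0.18, adjusted p = 0.0456, limma), as 1 of 31 members against 0.0631% of all genes. In siPTBP1 the difference was -0.68 (adjusted p = 0.21, 0.0345 with the block), and no member was called without the block, against 0.16% of all genes in either direction. With the block Kif2c and Kif22 were the 2 members called lower in NP, where 0.684% of all genes were in siPTBP1 and 0.704% in the double knockdown.

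In CY, Kif22 read 90.5, 115 and 105 TPM in siGFP, 76.0, 68.7 and 72.3 TPM in siPTBP1, and 40.6, 69.3 and 70.0 TPM in the double knockdown. Each knockdown group lay below siGFP without overlap. The differences were -0.51 (adjusted p = 0.639, 0.143 with the block) and -0.81 (adjusted p = 0.0627, 0.0077 with the block). In CH it read 178, 182 and 183 TPM in siGFP, 155, 172 and 168 TPM in siPTBP1, and 153, 194 and 171 TPM in the double knockdown. There the siPTBP1 libraries lay just below the controls (difference -0.14, adjusted p = 0.768 with the block), and the double knockdown overlapped with them. Its CH effect minus its CY effect was 0.37 and 0.74 and was not called (adjusted p = 0.978 and 0.278 with the block). The NP call of Kif22 in the double knockdown was lost without any 1 of its 6 libraries (adjusted p between 0.117 and 0.238), with no filter (0.0789) and with NP libraries fitted alone (0.287), while the difference stayed between -0.92 and -0.83. It held with a replicate block (0.00586), without the replicate 1 libraries (0.00301), and after median-ratio scaling (0.0487). The 3 mitochondrial RNAs summed to 55616 to 85059 TPM in that NP group, against 38108 to 61009 TPM in siGFP, and their part in the difference was not tested. The antisense gene Gm31749 overlaps Kif22 and had group means of 0 to 0.693 TPM. In such bulk libraries, fewer cells of a kind (here cells late in the cycle) and less RNA per cell cannot be told apart. Among 20 mitotic partner genes, such as Aurkb, Plk1 and Top2a, none was called in the 6 comparisons with siGFP, without the block (0.155% to 0.427% of all genes) or with it (1.83% to 2.65%). In NP of each knockdown 1 of them had an unadjusted p under 0.05. The median difference of these 20 genes was -0.24 in NP of siPTBP1 and -0.34 in NP of the double knockdown, against -0.01 over all genes in both. In CY it was 0.16 in siPTBP1 against 0.06, and -0.18 in the double knockdown against 0.0. In CH it was 0.09 in siPTBP1 against 0.09, and -0.0 in the double knockdown against 0.07. The part of these genes, or of the pluripotency, visceral endoderm or neuron markers, in the Kif2c and Kif22 differences was not tested.

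The other 9 spindle motors were not called in any of these comparisons, with or without the block. In NP of siPTBP1 all 11 spindle motors had differences below 0, with a median of -0.34 against -0.01 over all tested genes, and in the double knockdown 10 of 11 did, with a median of -0.21 against -0.01. After median-ratio scaling these counts were 9 and 8, with medians of -0.24 and -0.08, and after quantile normalization 11 and 9. Over the 31 tested members of all roles, 23 and 22 were below 0 in NP. In CY, 3 of the 11 spindle motors were below 0 in siPTBP1 (median 0.14, all genes 0.06) and 7 in the double knockdown (-0.11, all genes 0.0). The CY counts were 7 and 7 after median-ratio scaling (medians -0.02 and -0.13), and 4 and 7 after quantile normalization. In CH, 2 were below 0 in siPTBP1 (0.16, all genes 0.09) and 1 in the double knockdown (0.09, all genes 0.07). The CH counts were 3 and 3 after median-ratio scaling, and 2 and 3 after quantile normalization. Of the spindle motors, Kif22 was called in NP of the double knockdown, and Kif2c and Kif22 in NP of both knockdowns with the block. Kif20a read 54.3, 69.8 and 85.2 TPM in NP of siGFP and 24.6, 59.4 and 68.8 TPM in the double knockdown, a difference of -0.55 (SE 0.52, adjusted p = 1.0) with overlapping groups. Kif18b read 43.4, 47.6 and 47.0 TPM in CY of siGFP, 51.2, 54.7 and 57.1 TPM in siPTBP1 and 63.9, 53.8 and 57.9 TPM in the double knockdown. Both knockdown groups were above the control, but the differences of 0.24 and 0.34 were not called (adjusted p = 0.713 and 0.362 with the block).

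Transport motors had no call without the block. The largest positive differences in CY were those of Kif1a, which went from 7.85, 15.4 and 5.57 TPM in siGFP to 15.1, 23.4 and 10.1 TPM in siPTBP1 and 16.2, 21.7 and 10.9 TPM in the double knockdown. It was higher in all 3 same-numbered pairs for each, yet the groups overlap, and the differences of 0.73 and 0.76 (SE 0.49) missed the threshold also with the block (adjusted p = 0.161 and 0.111). Kif1b, which carries mitochondria and vesicles, differed by 0.57 in CY of siPTBP1 (adjusted p = 0.17 with the block) and by 0.48 in CH (0.237). Kif1c differed by 0.52 in CY of the double knockdown (0.185 with the block).

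Kif21a (chr15:90933276-91049948, minus strand), a motor that restrains microtubule growth at the cell cortex, was the exception under the block. In CH it read 2.51, 6.25 and 4.91 TPM in siGFP, 4.52, 12.9 and 9.06 TPM in siPTBP1, and 3.6, 13.9 and 9.16 TPM in the double knockdown. Each knockdown library was above the control of the same number, but replicate 1 was low in all 3 groups, so the groups overlap. The differences of 0.79 and 0.74 (SE 0.57) had an adjusted p of 1.0 without the block and of 0.017 and 0.0269 with it. No member was called in CH without the block (0.398% and 0.427% of all genes were), none had an unadjusted p under 0.05, and with the block Kif21a was the only one (1.82% and 1.64% of all genes called higher).

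Both knockdowns share their siGFP libraries and are given side by side only. Tested against each other, they differed for no kinesin gene, with or without the block (0.0%, 0.00485% and 0.107% of all genes called in CY, NP and CH without it), and no member had an unadjusted p under 0.05. The Kif2c difference between them in CY was -0.35, or 0.03 without replicate 1 of the double knockdown, and that of Kif22 was -0.31.

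**Figure D3:**
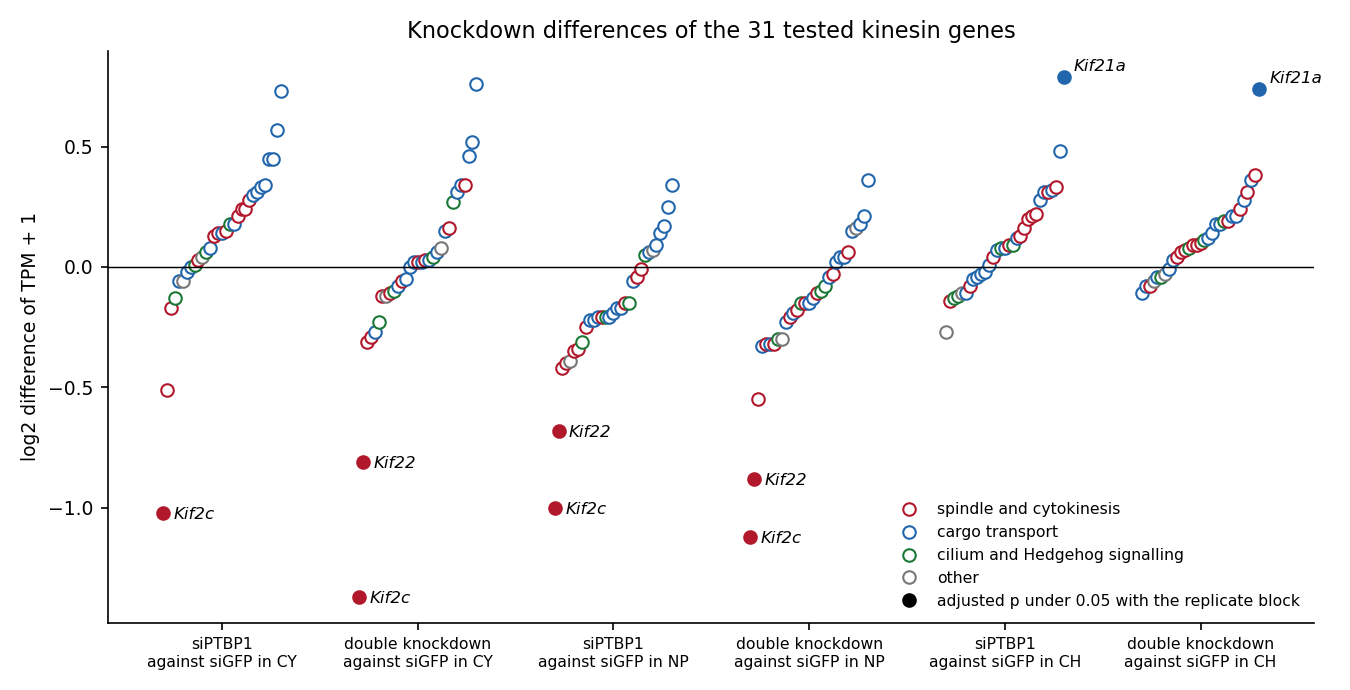
Differences on the log2(TPM + 1) scale of the 31 tested kinesin genes in each of the 6 comparisons with siGFP, 1 circle per gene, coloured by role and sorted within each comparison. Filled circles passed with the replicate block: Kif2c below 0 in CY and NP of both knockdowns, Kif22 likewise except in CY of siPTBP1, and Kif21a above 0 in CH.

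Across fractions, kinesin RNA in TPM was highest in the chromatin libraries. The 37 members summed to 563 TPM in CY, 625 TPM in NP and 1700 TPM in CH of siGFP, and the spindle motors held 67.8%, 65.0% and 74.9% of these sums. In CH against CY of siGFP, 23 of 31 tested members were called higher and 0 lower, where 57.9% of all genes were called higher. The members' median difference was 0.88, that of all genes 0.95 and that of 14240 tested protein-coding genes 0.8. The filter took genes from any fraction, and siGFP libraries held 17301 to 19051 genes at 1 TPM or more in CH, against 12210 to 13218 in CY. How far the filter alone sets the all-gene share and median, here and in the knockdowns, was not tested. The called members were 8 of 11 spindle motors, 11 of 14 transport motors, 3 of 4 cilium genes and 1 of 2 others, with Kif9 and Kif17 among them. With the block 28 were called (65.4% of all genes), and without replicate 1 of CY the count was 14.

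The largest differences were those of 3 spindle motors. Kif15 (chr9:122951046-123018733, plus strand), which backs up Kif11 in keeping spindle poles apart, read 6.83, 7.37 and 12.4 TPM in CY of siGFP, 11.2, 32.6 and 23.3 TPM in NP, and 124, 328 and 236 TPM in CH. The mean in CH was 25.9 times that in CY (difference 4.48, SE 0.50, adjusted p = 1.29e-07, limma), and 0.33% of 14240 tested protein-coding genes differed by as much or more. Kif20b (chr19:34922361-34975745, plus strand), a motor of late cytokinesis, read 3.75, 9.33 and 11.4 TPM in CY, 10.9, 26.0 and 21.3 TPM in NP and 67.5, 127 and 114 TPM in CH. Its CH mean was 12.6 times that of CY (difference 3.56, SE 0.49, adjusted p = 2.13e-06). Kif23 (chr9:61915905-61946774, minus strand) read 20.4, 33.9 and 52.6 TPM in CY, 40.8, 75.8 and 83.3 TPM in NP and 203, 483 and 421 TPM in CH, a ratio of 10.4 (difference 3.34, SE 0.48, adjusted p = 3.79e-06). For each of the 3 genes, all CH libraries were above all NP and CY libraries. Kif15 overlaps the same-strand gene Gm47148, listed at 10.9 to 11.8 TPM in the CH groups. Kif20b holds the microRNA gene Mir1950 on its strand, listed at 20.3 to 40.2 TPM in CH. Reads of such genes and their hosts can be split.

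**Figure D4:**
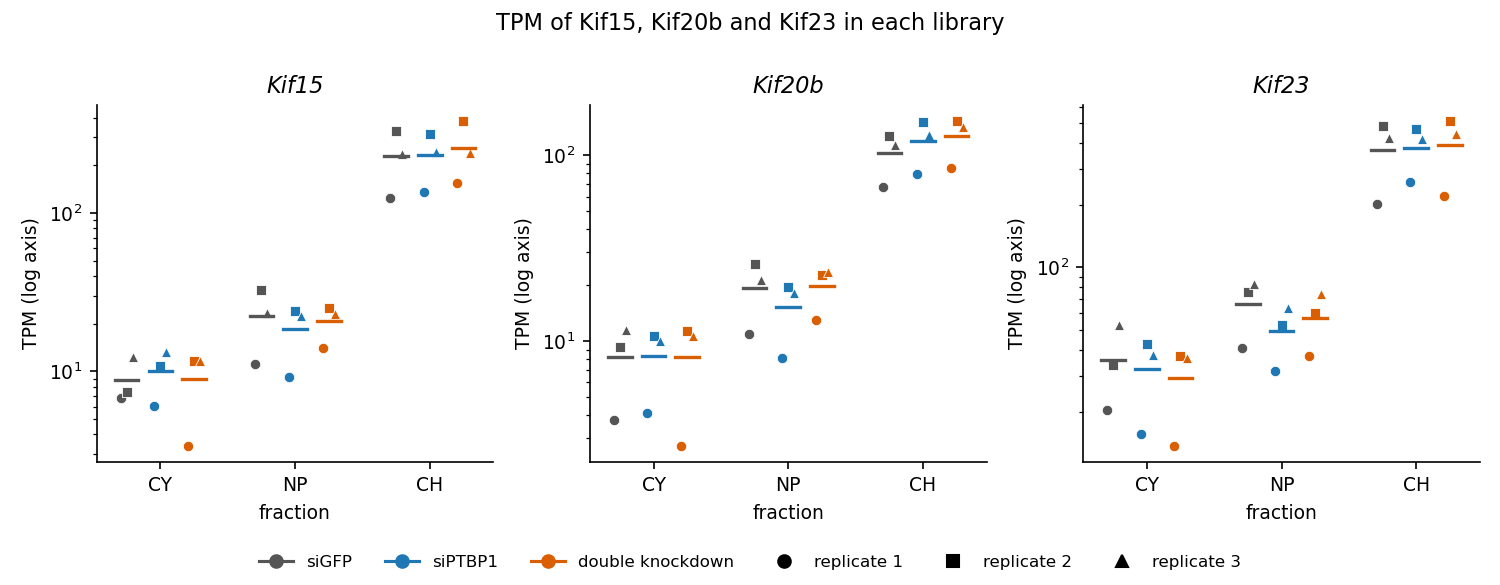
TPM of Kif15, Kif20b and Kif23 in each of the 27 libraries on a log axis, by fraction and treatment, with bars at the group means (n = 3). All CH points lie above all NP and CY points, the treatments overlap within every fraction, and replicate 1 is lowest in each group.

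Among transport motors, Kif3a and Kif5b differed most. Kif3a, the kinesin-2 subunit that drives intraflagellar transport with Kif3b, averaged 6.67 ± 2.8 TPM in CY of siGFP and 38.1 ± 19.8 TPM in CH, its lowest CH library (21.6 TPM) above its highest CY library (8.29 TPM, difference 2.31, SE 0.52, adjusted p = 0.000555), 5.71 times as much. Kif5b read 12.8, 12.1 and 23.9 TPM in CY and 51.3, 83.5 and 88.2 TPM in CH (difference 2.15, SE 0.54, adjusted p = 0.00155), 4.58 times as much. The partner Kif3b differed by 0.88 (adjusted p = 0.0219), but was lower in CH after quantile normalization. Of the cilium genes, Kif24 differed by 1.86 (adjusted p = 5.05e-05) and Kif7 by 1.21 (adjusted p = 1.53e-05), the latter with the opposite sign after quantile normalization.

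Of the most abundant motors in CY, Kif20a differed least between the fractions. Kif20a averaged 80.7 ± 28.9 TPM in CY, 69.8 ± 15.4 TPM in NP and 89.2 ± 26.9 TPM in CH of siGFP, a CH difference of 0.17 (SE 0.52, adjusted p = 0.79). Kif1c differed by 0.27 and Kif19a by 0.33. With Kif18b (0.55), Kif16b (0.57), Kif21a (0.75), Kif11 (0.81) and Kif2a (0.88), these were the 8 tested members that were not called. With the block, Kif2a (adjusted p = 0.00427), Kif11 (0.00413), Kif16b (0.0053), Kif18b (0.0048) and Kif21a (0.000517) were called, and Kif1c, Kif19a and Kif20a were not.

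TPM is a share of each library, and the libraries' compositions differ, so these counts moved with the scaling. The median of all genes in CH against CY of siGFP went from 0.95 to 0.57 after median-ratio scaling and to -0.12 after quantile normalization, and that of the members from 0.88 to 0.29 and -0.26. The share of called genes that were higher went from 87.8% to 74.2% and 43.3%. Under quantile normalization 6 members were called higher and 5 lower (Kif3b, Kif9, Kif16b, Kif17 and Kif19a), and 12 of the 23 changed sign. In siGFP, 6 members were called higher under all 3 scalings: Kif2c, Kif3a, Kif5b, Kif15, Kif20b and Kif23.

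The same 3 spindle motors led in the knockdowns. In siPTBP1, 19 of 31 members were called higher in CH than in CY (57.8% of all genes were) and 25 with the block (65.2%), led by Kif15 (difference 4.37, adjusted p = 1.74e-07), Kif20b (3.75), Kif23 (3.60), Kif2c (2.46, adjusted p = 2.72e-07) and Kif5b (1.98). In the double knockdown, 20 were (60.4% of all genes) and 26 with the block (66.9%), led by Kif15 (4.77, adjusted p = 4.42e-08), Kif20b (3.94), Kif23 (3.74), Kif2c (2.84, adjusted p = 3.06e-08) and Kif3a (2.27). No member was called lower in either, and Kif9 and Kif17, tested only through their CH libraries, were among those called higher in both. By this difference Kif2c held rank 11 of 31 in siGFP and rank 4 in each knockdown. Kif22 in CH was 1.75 times CY in siGFP, 2.28 times in siPTBP1 and 2.88 times in the double knockdown. Under all 3 scalings, Kif2c, Kif15, Kif20b, Kif22 and Kif23 were called higher in both knockdowns, with Kif5b in siPTBP1 and with Kif3a and Kif24 in the double knockdown. Quantile normalization called 9 members lower in siPTBP1 and 8 in the double knockdown.

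**Figure D5:**
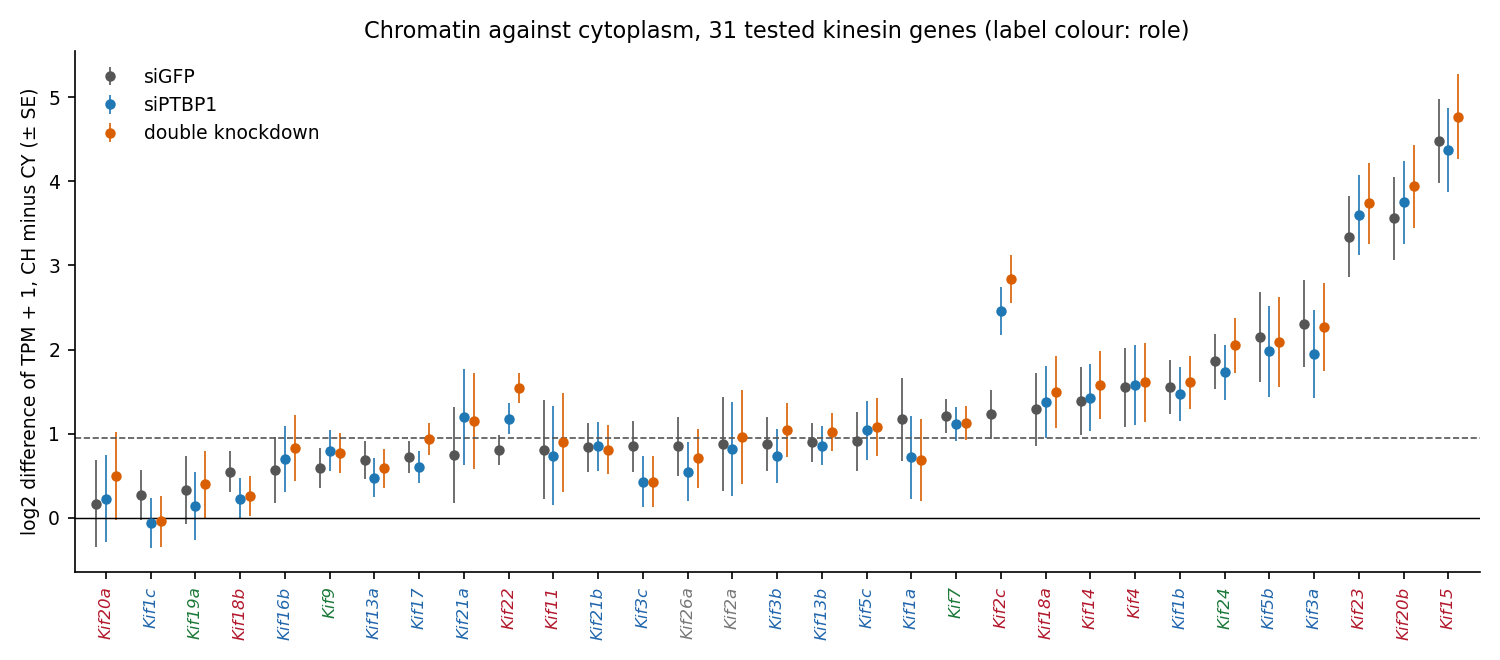
Difference between CH and CY on the log2(TPM + 1) scale for the 31 tested kinesin genes in each treatment, with SE, ordered by the siGFP value and with gene names coloured by role. The dashed line is the siGFP median of all tested genes (0.95). Kif15, Kif20b and Kif23 stand apart in all treatments, and Kif2c has its control value (1.23) well below its knockdown values (2.46 and 2.84).

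Chromatin against nucleoplasm gave a like picture. In siGFP 19 of 31 members were called higher (46.0% of all genes), in siPTBP1 23 (51.4%) and in the double knockdown 21 (51.9%), with none lower. These include Kif17 in siGFP and both Kif9 and Kif17 in each knockdown, which passed the filter only through their CH libraries. After median-ratio scaling 11, 12 and 15 were called higher, and after quantile normalization 6, 9 and 6, with Kif5c then called lower in both knockdowns. The share of all called genes that were higher moved too, from 89.3% to 75.3% and 45.7% in siGFP. It went from 90.1% to 71.2% and 46.1% in siPTBP1, and from 89.2% to 71.1% and 46.6% in the double knockdown. How many of all genes were called under these scalings is not given here. Kif15 differed by 3.31, 3.60 and 3.53, Kif23 by 2.42, 2.93 and 2.72, and Kif20b by 2.38, 2.93 and 2.62, with Kif24 (1.86) and Kif3a (1.63) next in siGFP. The Kif3a call there was lost without replicate 2 of CH (adjusted p = 0.0814) or replicate 1 of NP (0.0599), and after quantile normalization (0.91, adjusted p = 0.0662). For Kif2c the differences were 1.25, 2.46 and 2.61, and for Kif22 1.12, 1.67 and 1.93.

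Nucleoplasm and cytoplasm differed little. No member was called in siGFP (12.8% of all genes were), with 2 at an unadjusted p under 0.05, and 4 were with the block (28.3% of all genes): Kif20b (1.19, adjusted p = 6.75e-06), Kif15 (1.17, 0.000303), Kif23 (0.92, 0.000129) and Kif3a (0.68, 0.0104), all higher in NP. In siPTBP1 none was called without the block (17.5% of all genes), with 2 at an unadjusted p under 0.05, and 6 were with it (35.7%), among them Kif22 (-0.49, adjusted p = 0.0229) and Kif18b (-0.55, 0.0107) as the 2 lower ones. In the double knockdown Kif18b alone was called lower, as 1 of 31 against 4.66% of all genes, and 8 members were called with the block (38.2%). It read 63.9, 53.8 and 57.9 TPM in CY and 48.9, 26.6 and 32.1 TPM in NP, with no overlap (difference -0.73, SE 0.24, adjusted p = 0.035, 0.00109 with the block). That call was lost without replicate 2 or 3 of NP (adjusted p = 0.211 and 0.112), without replicate 1 or 3 of CY (0.0975 and 0.0723), with no filter (0.0637) and under both other scalings (0.0627 and 0.0644).

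Features of the genes were set beside the chromatin difference as a description. Over the 31 tested members in siGFP, the number of annotated retained-intron transcripts had a Spearman rho of 0.41 with the CH minus CY difference. Over 14240 tested protein-coding genes the rho was 0.237. Gene span gave a rho of 0.19 against 0.265, the number of exons 0.199 against 0.384 and the longest transcript 0.0476 against 0.406. On log2(number + 1) of retained-intron transcripts, the members' Pearson r was 0.534, with none computed over protein-coding genes. The genes share libraries and are not independent. The 20 members with such a transcript had a median difference of 1.03 and the 11 without one 0.88, against 0.98 and 0.57 among protein-coding genes.

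Genes that work with the kinesins were tested as lists. Of 17 tested light chains, adaptors and kinesins outside the naming rule, 1 rose in CY of each knockdown (0.16% and 0.15% of all genes did): Klc1, the light chain that couples conventional kinesin to cargo, from 21.8 ± 4.96 TPM in siGFP to 57.3 ± 5.76 TPM in siPTBP1 (difference 1.37, SE 0.23, adjusted p = 0.00896) and, with both siRNAs, 52.3 ± 14.0 TPM (1.21, adjusted p = 0.0228). In NP its differences of 0.91 and 0.99 passed with the block (adjusted p = 0.0132 and 0.00735, against 0.196 and 0.131). Kif1bp, which binds kinesin motor domains and blocks them from microtubules, was higher in CH by 1.09 and 1.19 with the block (adjusted p = 0.00451 and 0.00243, against 0.567 and 0.421 without it). Trak1, an adaptor for mitochondria, differed by 0.70 in CY of the double knockdown (0.0262 with the block, 0.195 without). Of 22 tested dynein and dynactin genes, which form the minus-end motor, none was called in the 6 comparisons with siGFP, with or without the block, and at most 1 per comparison had an unadjusted p under 0.05. Over all genes, 0.155% to 0.427% were called in these comparisons without the block and 1.83% to 2.65% with it. In CH against CY of siGFP, 12 of the 17 were called higher and 1 lower, 9 and 4 of the 22, and 8 and 1 of the 20 mitotic partners (57.9% and 8.08% of all genes), with medians of 1.83, 0.49 and 0.57 against 0.95 for all genes.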

How the data were processed

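Per the submitters' processing notes, STAR and kallisto were used with the mm10 build. Their versions are not given in the sources used here. For all libraries, the authors deposited 1 table of gene TPM (27 libraries), without counts. Differences were tested with limma 3.58.1 (R 4.3.3) on log2(TPM + 1), for 20611 of 53379 genes with at least 1 TPM in at least 3 libraries, with 9 group means, a mean-variance trend, robust moderation and Benjamini-Hochberg adjustment over all tested genes (threshold 0.05). Libraries of 1 replicate number deviated together (108 pairs, lowest r 0.13, median 0.365, against a median of -0.213 for other pairs), so the replicate block was fitted as an alternative. A block of treatment and replicate number together was also tried for fraction differences, and the labels do not say whether such libraries come from the same culture. The scripts were tested on simulated data. Full statistics were given for at most 8 called members of a comparison, for the 5 with the largest differences otherwise, or for up to 3 with the smallest adjusted p where none was called, and every library's value for members called in a knockdown. Members, lists and rules were chosen with earlier results of these data known. The TCTT count was chosen after seeing the data. Coordinates and annotations are those of GENCODE M21 on GRCm38, and promoters are those of RefSeq on GRCm38.p6.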

Additional observations from a re-analysis of the deposited data

Results flagged for a closer look

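The effect of the knockdowns on Kif2c differed between fractions in a direct test with the replicate block. The siPTBP1 effect in CH minus the same effect in CY was 1.23 on the log2 scale (adjusted p = 0.0134 with the replicate block and 1.0 without it, limma), and for the double knockdown it was 1.61 (0.000532 and 0.382). With treatment and replicate number together as a block the adjusted p was 0.0362 and 0.00285, and without the replicate 1 libraries the values were 1.30 (0.0258) and 1.45 (0.0128). With only CH and CY libraries fitted, the double knockdown value had an adjusted p of 1.0.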

How the results depend on the processing

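Counts of kinesin genes called moved with these choices. Shares of all genes called are given above only for the main fit and the replicate block. Counts under other settings thus do not show whether kinesin genes stand apart from all genes. With the replicate block, siPTBP1 had 1 call in CY, 2 in NP and 1 in CH (0 in each without it), and the double knockdown had 2, 2 and 1 (1, 1 and 0 without it). Between NP and CY, 4, 6 and 8 were called in siGFP, siPTBP1 and the double knockdown with the block and 4, 6 and 6 with treatment and replicate number together as a block (0, 0 and 1 without), and 1 for each CH minus CY effect with either block (0 without). The block moved no other count by over 1.5 times. Without the replicate 1 libraries, 2 were called in CY and NP of both knockdowns, 5, 7 and 9 between NP and CY, and 1 for each CH minus CY effect. With log2(TPM + 0.1), 2 were called in CY of the double knockdown. With no filter on low values, or with only the fractions compared in the fit, 0 were called in CY and NP of the double knockdown, and with no filter 0 between NP and CY there. With median-ratio scaling 1 was called in CY of siPTBP1, 2 in CY and 2 in NP of the double knockdown, 1, 1 and 3 between NP and CY, 12 in CH against CY and 11 in CH against NP of siGFP, 12 in CH against NP of siPTBP1 and 1 for the CH minus CY effect of the double knockdown. With quantile normalization the counts were 1, 2 and 2 in the same knockdown groups, 1 and 4 between NP and CY of siPTBP1 and the double knockdown, 11 (6 higher and 5 lower) and 6 in siGFP, and 10 and 7 in CH against NP of the knockdowns. Leaving out 1 library at a time gave 0 to 1 in CY and 0 in NP of the double knockdown, 14 to 22, 15 to 19 and 15 to 23 in CH against CY of siGFP, siPTBP1 and the double knockdown, 13 to 20, 18 to 22 and 18 to 23 in CH against NP, and 0, 0 to 2 and 0 to 2 in NP against CY. All other counts stayed at 0. Of 516 single-gene results with 1 library left out, 498 kept their side of the threshold, 16 lost their call and 2 gained one. In these, the sign changed for Kif2c (0.03, against -0.35) and for Kif3b (0.08) between the knockdowns in CY without replicate 1 of the double knockdown, neither called. The cause of these changes was not tested. Median-ratio scaling moved the share of called genes that were higher from 66.7% to 81.7% in NP of siPTBP1, from 59.4% to 79.1% in NP of the double knockdown and from 70.2% to 57.1% and 68.3% to 55.8% in CY and CH of siPTBP1, and from 76.1% to 65.2% in CH of the double knockdown. Quantile normalization took it from 62.0% to 51.8% in CY of the double knockdown. TPM carries no depth, so low members are limited by an unknown number of reads.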
